A study of Homo sapiens with 18 samples.

Results

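The 51 genes described here act in homologous recombination and the repair of DNA breaks. They were given as a list of names, drawn up with earlier results of these data known, and each matched 1 gene identifier among the 62703 genes listed in each count table. RNA from 3 multiple myeloma cell lines (AMO1, H929 and LP1, malignant plasma cells grown in culture) was sequenced 48 h after the cells took up a GapmeR, a short antisense oligonucleotide that leads a nuclease to its target RNA, by gymnosis, that is, without a transfection reagent. In each line 3 libraries carried the label SCR, the scrambled control GapmeR, and 3 the label gN1E, the GapmeR against the long non-coding RNA NEAT1, which gives 18 libraries in all. Each line is a single established culture, no untreated cells were included, and the labels do not say whether replicates came from separate cultures, so p-values measure the spread between these libraries, which may be technical.

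The labels and the data disagreed on the direction of the knock-down. NEAT1 measured 493, 576 and 539 CPM (reads of a gene relative to the scaled total of its library) in the AMO1 libraries labelled gN1E and 78.8, 81.7 and 94.6 CPM in those labelled SCR. It was 6.67-fold higher under the gN1E label in H929 (log2 fold change 2.74 ± 0.07, standard error) and 4.40-fold higher in LP1 (2.14 ± 0.19). A knock-down label thus went with high NEAT1 in each line, and the names written inside the deposited tables exchange gN1E with SCR and H929 with LP1. Groups below are called by their GEO labels, and every direction is given as higher or lower in the libraries labelled gN1E, where NEAT1 was high. The libraries labelled H929 also shared the leading immunoglobulin heavy variable gene of AMO1, IGHV3-23 (1030 to 1960 CPM against 1430 to 2110 CPM), while no such gene passed 0.906 CPM in LP1. All 7 plasma cell markers were present in every library, the lowest being CD38 at 39.2 CPM in LP1, and of 9 markers of other blood cells only CD3E (7.40 to 24.9 CPM) and, in LP1, PAX5 (0.853 to 1.38 CPM) passed the level of 0.5 CPM. Library totals ran from 28061606 to 69937229 counted fragments, and in AMO1 the libraries labelled gN1E were the shallower ones (28061606 to 49784737 against 53227560 to 66142827).

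A broken DNA double strand is sensed by the MRE11, RAD50 and NBN complex and by the kinases ATM and ATR, which signal to the checkpoint kinases CHEK1 and CHEK2. Nucleases then trim the ends, RPA covers the single strand, and BRCA1, PALB2 and BRCA2 prepare it for strand exchange, so that the sister chromatid can serve as template. The BRCA1-A complex tempers that trimming, the Fanconi anaemia proteins free crosslinked strands, and the Ku proteins, DNA-PK, XRCC4 and LIG4 instead rejoin ends directly. Plasma cells descend from B cells that have broken and rejoined their immunoglobulin genes, and myeloma genomes are rich in rearrangements.

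All 51 genes passed the filter on low counts in each line. In AMO1, 6 of them rose in the libraries labelled gN1E and none fell (edgeR quasi-likelihood test, Benjamini-Hochberg adjusted p under 0.05 over all genes tested), against 1.64% of all 22933 genes called higher and 0.419% called lower. In H929, 8 of the 51 rose and none fell, against 3.70% of 23499 genes called higher and 1.77% called lower. In LP1, 4 of the 51 rose and none fell, against 0.656% of 23165 genes called higher and 0.777% called lower. These counts moved with the fit. For the fits that follow, the share of all genes called is given only for AMO1 with the block (3.38% higher). The other counts show how the calls moved and cannot be set against all genes. With the replicate letter as a block, 15 of the 51 rose in AMO1 rather than 6. Libraries of the same letter deviated alike from their label's mean there, if weakly (correlations 0.121 to 0.198). The block left 7 in H929 and 2 in LP1. In LP1 only letter A had such a correlation (0.178), and in H929 no letter had. A rule of a 1.5-fold change with an adjusted p under 0.1 left 3 in AMO1, 3 in H929 and 1 in LP1. The H929 count fell from 8 to 4 without SCR replicate A and to 5 without gN1E replicate B, and the LP1 count to 2 without SCR replicate A, SCR replicate B or gN1E replicate A. In the fit without the block, the shares of the 51 genes called higher were 11.8%, 15.7% and 7.84%. Among all genes whose mean level lay within the range spanned by the 51, the shares called higher were 3.05%, 7.02% and 1.22%. The calls without the block fell on 9 genes, of which RAD51B, BABAM2 and PARP1 passed the threshold in all 3 lines, BRIP1 and FANCD2 in AMO1 and H929, FANCA in H929 and LP1, XRCC4 in AMO1, and PRKDC and RAD54L in H929. Of the 19934 genes tested in each line, 4.65% were called higher in at least 1 line and 0.311% in all 3, and of the 9681 within the range of levels of the 51 in each line, 7.89% and 0.578%.

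Apart from those calls, the shifts were small. Over the 51 genes the log2 fold changes had medians of 0.09 in AMO1, 0.05 in H929 and 0.08 in LP1, beside -0.02, -0.01 and -0.001 over all genes tested. The change was above 0 for 39, 36 and 42 of the 51 genes, while 46.5%, 47.9% and 49.7% of all genes tested lay above 0, and 54.9%, 54.8% and 47.1% of those within the range of levels of the 51. Without RAD51B, BABAM2 and PARP1 the medians of the other 48 genes were 0.09, 0.03 and 0.08. The many small changes depended on the scaling. With library size alone 32 genes lay above 0 in AMO1, 26 in H929 and 47 in LP1, and the medians were 0.06, 0.005 and 0.11. That scaling called 4 rather than 6 genes in AMO1 and 5 rather than 8 in H929, and its shares of all genes are not given here. All 3 gN1E values exceeded all 3 SCR values for 18, 17 and 17 of the 51 genes, against 9.48%, 11.3% and 9.14% of all genes tested in AMO1, H929 and LP1 and 15.6%, 18.1% and 10.7% of those within the range of levels of the 51. Only RPA1, BRIP1, BABAM2, RAD51B, FANCA, PRKDC and PARP1, 7 genes, were separated in this direction in all 3 lines, against 1.71% of the genes tested in each line and 3.0% of those within the range of levels. For any one gene, an exact two-sided permutation test over 3 against 3 libraries cannot give a p below 0.1.

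**Figure D1:**
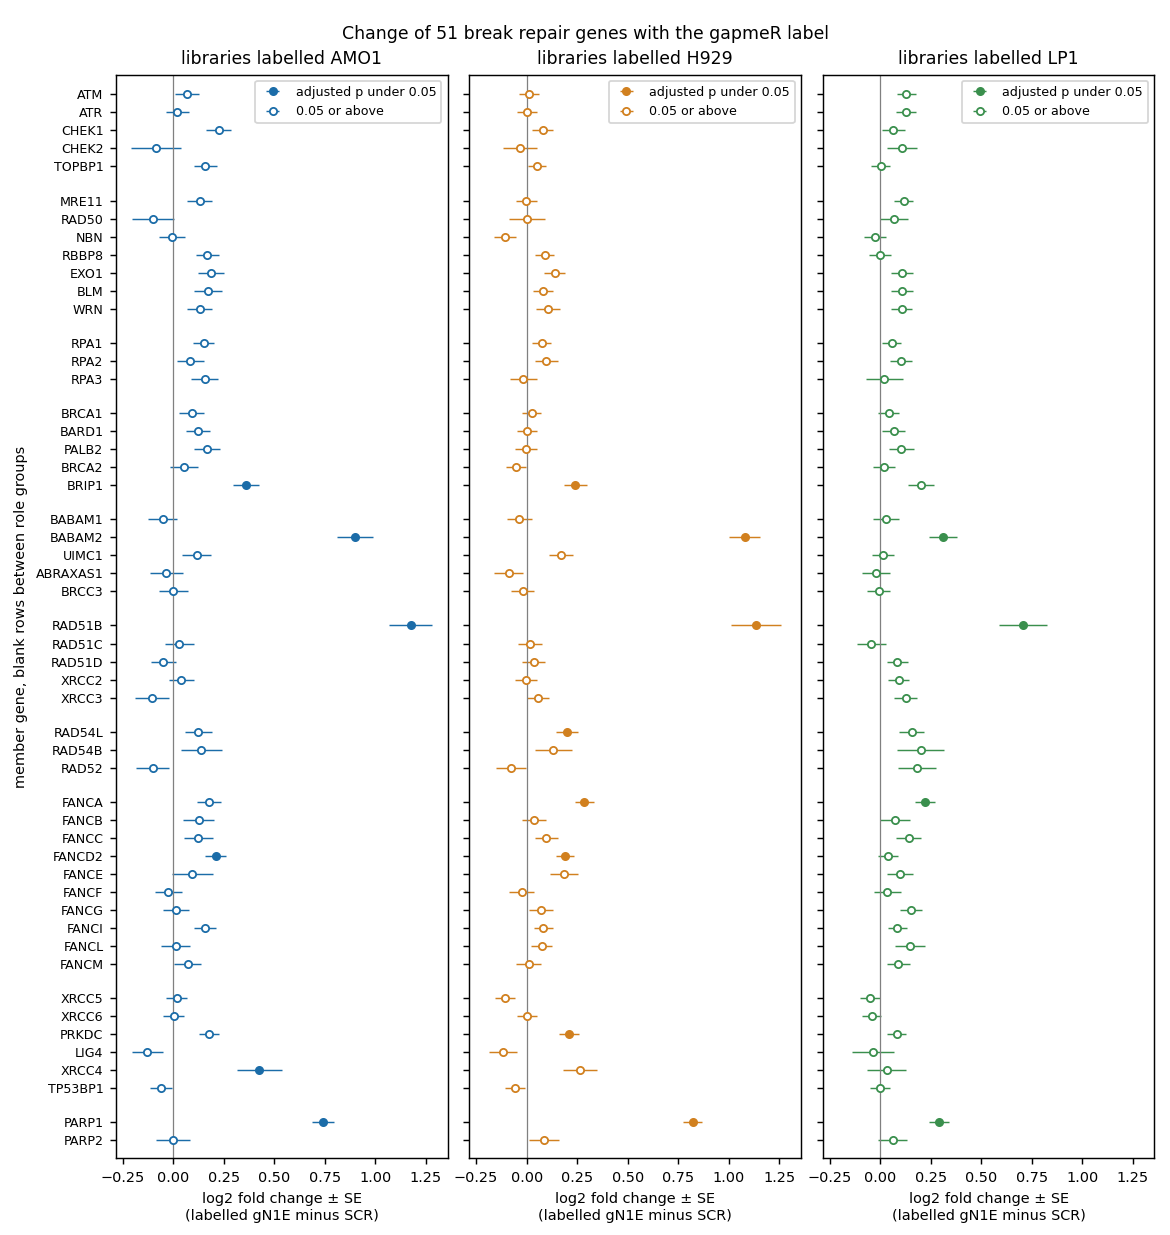
Log2 fold change (horizontal axis, libraries labelled gN1E minus SCR, with its standard error) of the 51 genes (vertical axis, grouped by role) in the libraries labelled AMO1, H929 and LP1. Filled points have an adjusted p under 0.05: 6, 8 and 4 genes in the fit without the replicate block (15 in AMO1 with it), all to the right of 0, with RAD51B, BABAM2 and PARP1 filled in each panel and most other points within about 0.2 of 0.

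RAD51B, which acts with RAD51C, RAD51D and XRCC2 in a complex that assists strand exchange, showed the largest fold change of the 51 genes in each line. The gene (ENSG00000182185.19, chr14:67819779-68730218 on hg38, plus strand) spans 910 kb, the longest span among them. It measured 11.8, 12.4 and 11.2 CPM in the AMO1 libraries labelled gN1E and 4.88, 5.34 and 5.47 CPM in those labelled SCR. In H929 the values were 8.56, 6.59 and 8.40 against 3.94, 3.23 and 3.56 CPM. In LP1 they were 5.54, 5.23 and 5.35 against 2.88, 3.43 and 3.60 CPM. The labels did not overlap in any line, and the LP1 groups lay closest to each other. RAD51B was 2.26-fold higher in AMO1 (log2 fold change 1.18 ± 0.11, adjusted p = 4.6e-07, edgeR), 2.19-fold in H929 (1.13 ± 0.12, adjusted p = 1.76e-07) and 1.63-fold in LP1 (0.71 ± 0.12, adjusted p = 0.00323). It stayed past the threshold under each alternative tried in each line, with a highest adjusted p of 0.0377 in LP1. These folds rest on modest counts, 127 to 570 fragments a library. RAD51C, RAD51D, XRCC2 and XRCC3, the other 4 genes of its role, stayed between -0.11 and 0.13 on the log2 scale in the 3 lines, and none passed the test.

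BABAM2, a scaffold subunit of the BRCA1-A complex (ENSG00000158019.21, chr2:27889941-28338901, plus strand, 449 kb), followed. Its AMO1 libraries held 25.8, 27.3 and 27.3 CPM under the gN1E label and 16.4, 13.7 and 12.9 CPM under SCR. In H929 they held 23.5, 24.7 and 23 against 10.1, 11.9 and 11.8 CPM. In LP1 the gap was narrow, with 17.9, 17.6 and 16.9 against 13.7, 14.2 and 14.3 CPM, though no library of one label reached into the other. The fold was 1.87 in AMO1 (log2 0.90 ± 0.09, adjusted p = 1.63e-06, edgeR), 2.11 in H929 (1.08 ± 0.08, adjusted p = 3.13e-11) and 1.24 in LP1 (0.31 ± 0.07, adjusted p = 0.0287). The LP1 call is a weak one: it was lost without SCR replicate A or B or gN1E replicate A or B, in the joint fit and with the genomic span offset, with a highest adjusted p of 0.14. It was also lost with the block (adjusted p = 0.0571, edgeR), with or without the span offset, and in LP1 only the libraries of letter A deviated alike. Of BABAM2's exon bases, 9.55% are shared on the same strand with MRPL33. No other gene of the complex passed the test. BABAM1, ABRAXAS1 and BRCC3 lay between -0.09 and 0.03. UIMC1, which tethers the complex to ubiquitin chains, reached 0.17 ± 0.06 in H929 with its labels apart (adjusted p = 0.101, edgeR, and 0.0323 to 0.349 over the alternatives). BABAM1 shares 32.9% of its exon bases with a neighbour, so its level is uncertain.

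PARP1, the polymerase that marks DNA breaks with poly(ADP-ribose) and is the main target of PARP inhibitors, was the most abundant of these 3 genes (ENSG00000143799.14, chr1:226360210-226408154, minus strand, 47.9 kb). AMO1 gave 230, 235 and 219 CPM under the gN1E label and 140, 131 and 138 CPM under SCR. H929 gave 267, 272 and 253 against 151, 152 and 145 CPM. LP1 gave 453, 483 and 447 against 358, 380 and 390 CPM, so that its SCR libraries lay above the gN1E libraries of both other lines. The fold was 1.67 in AMO1 (log2 0.74 ± 0.05, adjusted p = 2.11e-08, edgeR), 1.77 in H929 (0.82 ± 0.05, adjusted p = 4.9e-13) and 1.23 in LP1 (0.29 ± 0.05, adjusted p = 0.00323), and each kept an adjusted p under 0.05 in each alternative fit, though in LP1 it fell short of the 1.5-fold rule tried beside it. PARP2, its smaller relative, measured 24.9 ± 2.21 against 24.8 ± 1.83 CPM in AMO1 (SD, n = 3) and stayed at 0.09 or less on the log2 scale in H929 and LP1.

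**Figure D2:**
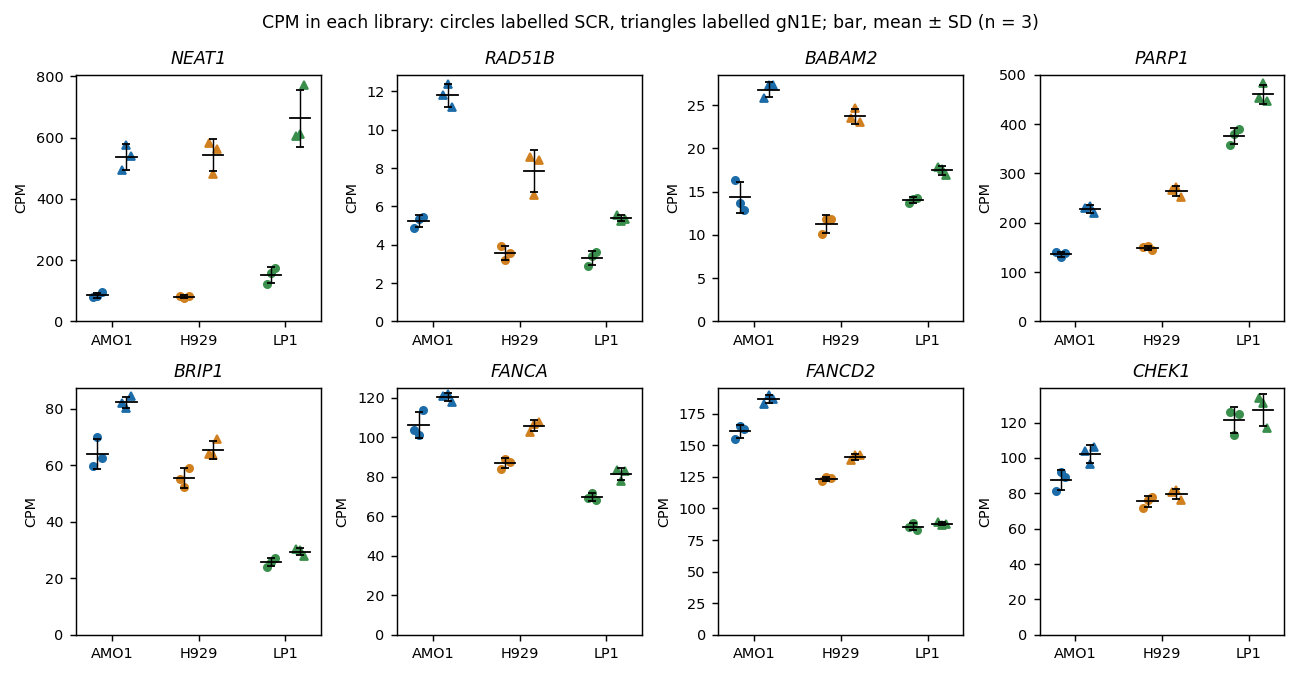
CPM (vertical axes, from 0) of NEAT1 and 7 of the 51 genes in each library of the 3 lines, with circles for the SCR label, triangles for gN1E and black bars for the mean ± SD of 3 libraries. Triangles lie above circles in all lines for NEAT1, RAD51B, BABAM2, PARP1, BRIP1 and FANCA, whereas for FANCD2 they overlap in LP1 and for CHEK1 in H929 and LP1.

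The size of the change differed between lines for 2 of the 51 genes. In a joint fit of the 18 libraries, the effect on PARP1 was larger in AMO1 than in LP1 by 0.47 ± 0.07 on the log2 scale (adjusted p = 0.000138, edgeR) and larger in H929 than in LP1 by 0.56 ± 0.07 (adjusted p = 5.78e-06). The effect on BABAM2 was larger in AMO1 than in LP1 by 0.61 ± 0.11 (adjusted p = 0.003) and larger in H929 than in LP1 by 0.80 ± 0.11 (adjusted p = 5.42e-05). Both remained called in each of the alternatives tried, against 0.741% of 26436 genes called in the first of these line comparisons and 0.874% in the second. For RAD51B the differences of 0.49 ± 0.16 and 0.46 ± 0.17 did not pass (adjusted p = 0.205 and 0.27). Between AMO1 and H929 none of the 51 genes was called by edgeR or limma-voom and none had an unadjusted p under 0.05, where 0.0% of all genes (0 of 26436) were called and 1771 had an unadjusted p under 0.05. NEAT1 itself was 6.30-fold higher in AMO1, 6.67-fold in H929 and 4.40-fold in LP1.

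The 5 genes grouped under break sensing and checkpoint signalling (ATM, ATR, CHEK1, CHEK2 and TOPBP1) gave no call in the unblocked fit. CHEK1, the checkpoint kinase that holds cells back when replication stalls, measured 104, 96.5 and 106 CPM in the AMO1 libraries labelled gN1E and 81.4, 91.8 and 89.3 CPM in those labelled SCR. The labels did not overlap there, and the log2 fold change was 0.23 ± 0.06 (adjusted p = 0.0706, edgeR). With the replicate letter as a block the value was 0.23 with an adjusted p of 0.00218 (edgeR). It passed in 6 alternatives in AMO1 (the block with and without the span offset, DESeq2, no filter, the joint fit and without SCR replicate C) and not in the other 10. The study had itself picked CHEK1 from AMO1 knock-down data, so this value is not independent evidence of its direction. In H929 the libraries overlapped, with 80.6, 82.0 and 76.4 against 71.9, 76.2 and 78.1 CPM (log2 0.08 ± 0.05, adjusted p = 0.465), and so they did in LP1 (0.06 ± 0.06, adjusted p = 0.682). ATM and ATR, the apical kinases, were separated by label in LP1 only, at 0.13 ± 0.05 each (adjusted p = 0.197 and 0.261). CHEK2 changed sign between lines (-0.09, -0.03 and 0.11), with standard errors of 0.07 to 0.12, and 8 pseudogene identifiers bear its name. TOPBP1, which activates ATR, stood at 0.16 ± 0.06 in AMO1 (adjusted p = 0.21 without the block, 0.0168 with it).

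With that block, 15 of the 51 genes rose in AMO1 and none fell, against 3.38% of all genes called higher in the same fit. They were the 6 genes called without it and CHEK1, TOPBP1, RBBP8, EXO1, BLM, RPA1, FANCA, FANCI and PRKDC, whose log2 fold changes were 0.15 to 0.23 without the block. With the block and a correction for genomic span together 8 rose and none fell, against 2.85% of all genes called higher in that fit. Among the genes of end resection, RBBP8, EXO1 and BLM measured 0.17 ± 0.06, 0.19 ± 0.06 and 0.17 ± 0.07 in AMO1 (blocked adjusted p = 0.0196, 0.0144 and 0.0484), and the libraries overlapped for BLM. MRE11 reached 0.13 ± 0.06 there and 0.12 ± 0.05 in LP1 with no call. NBN, its partner, lay at -0.01 ± 0.07, -0.11 ± 0.05 and -0.03 ± 0.05. Its sign turned in AMO1 and LP1 with single libraries left out (up to 0.04 and 0.01). RAD50 shares 76.9% of its exon bases with another annotated gene on the same strand, and its values (-0.10, 0.001 and 0.07) are uncertain for that reason. RPA1, the large subunit of the single-strand cover, lay at 0.15, 0.07 and 0.06, small shifts with separated labels in each line, and RPA2 and RPA3 passed in none.

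Of the BRCA core, BRIP1 alone passed the test. This helicase, which binds BRCA1 (ENSG00000136492.10, chr17:61679139-61863559, minus strand), measured 82.0, 80.1 and 84.3 against 59.6, 69.9 and 62.6 CPM in AMO1. In H929 it measured 63.8, 63.4 and 69.1 against 54.9, 52.3 and 59.1 CPM. The labels were apart in both lines, by 0.36 ± 0.06 (adjusted p = 0.00266, edgeR) and 0.24 ± 0.06 (adjusted p = 0.00775). In LP1 they were apart too, with 30.2, 30.1 and 28.0 against 24.1, 25.8 and 27.0 CPM, but the change of 0.20 ± 0.06 did not pass (adjusted p = 0.128, and 0.0417 without SCR replicate D, the one alternative in which it did). The H929 call was lost without SCR replicate A or gN1E replicate C, with library size alone and with the block and the span offset together. BRCA1, BARD1, PALB2 and BRCA2 lay between -0.05 and 0.17 with no call, and PALB2, the bridge between BRCA1 and BRCA2, had the highest of these values, 0.17 ± 0.07 in AMO1 (adjusted p = 0.282).

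Among the 10 Fanconi anaemia genes, FANCD2 was called in AMO1, FANCA and FANCD2 in H929 and FANCA in LP1. FANCA, a subunit of the core ligase complex, measured 103, 107 and 108 CPM in the H929 libraries labelled gN1E and 84.2, 89.2 and 87.6 CPM in those labelled SCR. Its LP1 values were 83.3, 78.0 and 83.2 against 69.4, 71.9 and 68.2 CPM. The changes were 0.29 ± 0.05 in H929 (adjusted p = 0.00027, edgeR) and 0.22 ± 0.05 in LP1 (adjusted p = 0.0246), and 0.18 ± 0.06 in AMO1 (adjusted p = 0.16, and 0.0148 with the block). The LP1 call was lost without SCR replicate A or B or gN1E replicate A or D. It was also lost with the block (adjusted p = 0.0565, edgeR), with or without the span offset, and in LP1 only the libraries of letter A deviated alike. FANCD2, which that ligase marks with ubiquitin, measured 183, 190 and 187 against 155, 165 and 163 CPM in AMO1 and 138, 142 and 142 against 122, 125 and 124 CPM in H929. It rose by 0.21 ± 0.05 in AMO1 (adjusted p = 0.0383) and 0.19 ± 0.05 in H929 (adjusted p = 0.0112), while in LP1 the libraries overlapped at 0.04 ± 0.05 (adjusted p = 0.785). With library size alone both of its calls were lost. So was the AMO1 call with the span offset and without SCR replicate A or D or gN1E replicate C or D, and the H929 call without SCR replicate A or gN1E replicate B. All 10 Fanconi genes lay above 0 in LP1 and 9 of them in AMO1 and in H929, FANCF being the exception in both (-0.03 and -0.02).

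End joining held genes of both signs. XRCC4, the partner of DNA ligase IV, measured 14.2, 15 and 17.6 against 10.6, 13.4 and 10.6 CPM in AMO1, a change of 0.43 ± 0.11 that barely passed (adjusted p = 0.049, edgeR, and 0.00101 with the block). It was lost without SCR replicate A or D or gN1E replicate C or D, with limma-voom, with library size alone, with a stricter count filter and with the span offset. In H929 the change was 0.26 ± 0.08 (adjusted p = 0.0688, and 0.0454 without SCR replicate C, the one alternative in which it passed) and in LP1 0.03 ± 0.10, and in LP1 its sign turned when single libraries were left out. PRKDC, the catalytic subunit of DNA-PK, measured 1290, 1350 and 1270 against 1100, 1140 and 1140 CPM in H929 (0.21 ± 0.05, adjusted p = 0.00798, edgeR). That call was lost without SCR replicate A or gN1E replicate B and with the span offset, alone or with the block. The AMO1 change of PRKDC was 0.18 ± 0.05 (adjusted p = 0.0712, edgeR, and 0.00414 with the block), which also passed with limma-voom, with DESeq2 and in the joint fit. XRCC5, a Ku subunit and the most abundant of the 51 genes per kb, lay at -0.11 ± 0.05 in H929 with its gN1E libraries below the SCR ones (adjusted p = 0.258). LIG4, the ligase itself, lay below 0 in each line (-0.13, -0.12 and -0.04), as did TP53BP1, which shields ends from resection (-0.06, -0.06 and -0.001), and none of these passed. The LP1 value of LIG4 lay within its standard error of 0.105, and that of TP53BP1 was close to 0.

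RAD54L, a motor protein that remodels DNA during recombination, was called in H929 only. It measured 45.0, 44.9 and 44.3 CPM under the gN1E label there and 40.4, 37.1 and 39.4 CPM under SCR, a change of 0.20 ± 0.06 (adjusted p = 0.03, edgeR). The call was lost without SCR replicate A or B or any 1 of the 3 gN1E libraries, and with library size alone. It was also lost with the block (adjusted p = 0.0672, edgeR), with or without the span offset, though the letters did not pair the H929 libraries. The changes in AMO1 and LP1 were 0.12 ± 0.07 and 0.16 ± 0.06 (adjusted p = 0.458 and 0.248). RAD52, which anneals single strands, had opposite signs in AMO1 and LP1 (-0.10 ± 0.08 and 0.18 ± 0.09), a difference that did not pass (adjusted p = 0.382). RAD54B shares 66.0% of its exon bases with FSBP, so its values (0.14, 0.13 and 0.20, no call) are uncertain.

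A list of 50 further break repair genes gave fewer calls. Both lists were chosen with earlier results of these data known, so that contrast does not show that the 51 genes differ from other repair genes. None of the 50 passed in AMO1 with edgeR, against 1.64% of all genes called higher and 0.419% called lower, and DESeq2 called 1. There 10 of the 50 (20%) had an unadjusted p under 0.05, against 12.2% of all genes tested and 17.7% of those within the range of levels of the 51. With the replicate block 5 passed: RAD18, RNF168, MDC1 and RMI2 were higher in the libraries labelled gN1E, by 0.17 to 0.27, and the histone H2AX was lower by 0.33, against 3.38% of all genes called higher and 2.69% called lower in that fit. In H929, 2 of the 50 rose, a share of 4.0% beside the 3.70% of all genes called higher, namely the nick ligase LIG3 (0.17 ± 0.05, adjusted p = 0.0256) and the helicase RECQL5 (0.24 ± 0.06, adjusted p = 0.0152), and both calls were lost without gN1E replicate B and with library size alone. That of LIG3 was also lost without SCR replicate A. That of RECQL5 was lost without SCR replicate C or gN1E replicate C and with the block and the span offset together. In LP1, 1 of the 50 fell, beside 0.777% of all genes called lower. It was H2AX, the histone variant phosphorylated around breaks (-0.32 ± 0.07, adjusted p = 0.0283, edgeR). That call was lost without SCR replicate A or B or gN1E replicate A or B. It was also lost in the joint fit and with the block and the span offset together. The medians of the 50 genes were 0.05, 0.02 and 0.01 in AMO1, H929 and LP1.

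The members that changed most were also compared by length and by sequence, as a description without a test. Their change rose with genomic span, with a Spearman correlation of 0.449 in AMO1, 0.305 in H929 and 0.173 in LP1 over the 51 genes, which share the same 6 libraries in each line. Over all genes with a mean of at least 1 CPM it was 0.235, 0.117 and 0.089 (14850, 15218 and 14546 genes). The median span of the 51 genes was 78.3 kb, against 24.8 kb for those genes in AMO1. PARP1, at 47.9 kb, lay below the median of the 51.

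Each 11-base stretch of NEAT1 was then scored by the AMO1 fold changes of the genes that carry it on the transcribed strand. The best-scoring stretch, with 5 bases on each side, lies at chr11:65425848-65425868 on hg38 (plus strand). It occurred in 262 of 14824 genes scored, with a mean log2 fold change of 0.33, against -0.01 over all of them. AMO1 values chose it, so nothing about AMO1 follows from the match, and the other lines are no independent check, since genes high in AMO1 can be high there whichever segment they carry. Among the 51 genes PARP1 and RAD51B carry that stretch whole, once each, in introns. The segment is shown here with the stretch in capitals, followed by the bases of 5 sites aligned to it, each with the bases that match the segment in capitals. The RAD51B site is the one of its 6 longest runs that holds the whole stretch, and the BABAM2 site the one of its 5 longest runs that lies within it.
NEAT1 segment: accttTTGTGGTCACTgtaaa
PARP1 intron, chr1:226388309-226388320 (minus strand): caCcTTTGTGGTCACTtgcAA
RAD51B intron, chr14:68386004-68386014 (plus strand): gCCacTTGTGGTCACTtaAgA
BABAM2 intron, chr2:28130217-28130226 (plus strand): AgtagaTGTGGTCACTaTctA
ATM intron, chr11:108291629-108291639 (plus strand): gCCTTgTGTGGTCACTGaAAA
PARP2 intron, chr14:20346132-20346143 (plus strand): ACCTTTTGTGGTtgCcaTcAg
The coordinates are those of the longest unbroken run shared with the segment: 12 bases in PARP1, 11 in RAD51B, 10 in BABAM2, 11 in ATM and 12 in PARP2. ATM and PARP2 are shown because neither was called in any line. The ATM site matches the segment at 18 of 21 bases, more than the sites of PARP1 and RAD51B with 15 each and BABAM2 with 13, and ATM's changes were 0.07, 0.01 and 0.13. The PARP2 run is as long as that of PARP1 but starts at base 1 of the segment rather than base 5, and its change was -0.001 in AMO1.

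Longest runs of 12 bases occurred in PARP1, PARP2 and TP53BP1, the last 2 of which were not called in any line. Runs of 11 bases occurred in 8 genes, ATM, BRCA1, FANCA, FANCB, FANCC, FANCL, RAD51B and XRCC4, of which RAD51B held 6 such sites. All of these runs lie in introns. Calls in either direction were then counted among all genes with a mean of at least 1 CPM. In H929, 31.2% with a run of 12 or more bases were called, 16.1% with 11 and 5.67% with 10 or fewer. In LP1 the shares were 7.84%, 2.7% and 1.83%. Of those calls, 205 of 215, 235 of 269 and 387 of 728 were higher in H929. In LP1, 50 of 53, 31 of 44 and 67 of 223 were higher. Of the 51 genes, 3, 8 and 40 fall in these classes, of which 1, 2 and 5 were called in H929 and 1, 2 and 1 in LP1, with median log2 fold changes of 0.09, 0.09 and 0.02 in H929 and 0.06, 0.14 and 0.08 in LP1, and in AMO1, which chose the segment, -0.001, 0.12 and 0.09. Longer genes have more chances of a match, and the GapmeR sequence is not given in the sources used here. Whether the span or the shared bases had a part in the changes of RAD51B, BABAM2 and PARP1 was not tested.

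**Figure D3:**
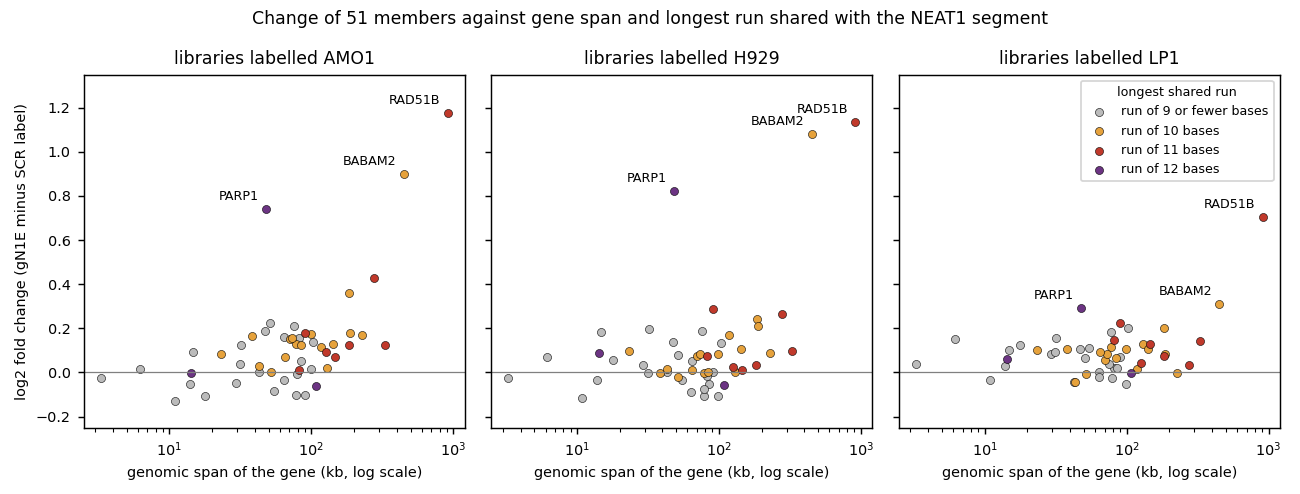
Log2 fold change (vertical axis, libraries labelled gN1E minus SCR) of the 51 genes against genomic span in kb (horizontal axis, log scale) in the 3 lines, coloured by the longest run of bases shared with the NEAT1 segment. RAD51B and BABAM2 lie at the right end with the longest spans, and PARP1, with a run of 12 bases, stands above the other genes of its span in each panel.

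The levels of the 51 genes differed widely from gene to gene and between lines. A level per kb is divided by all annotated exon bases of the gene, such as 1981 in RPA2 and 39184 in ATM. The order of genes therefore depends on the annotation as well. Per kb of exon, XRCC5 and XRCC6, the Ku subunits, and PRKDC were the 3 most abundant in each line, with medians of 147, 95.5 and 41.6 CPM per kb over the 6 AMO1 libraries. By the median over both labels RAD51B was the lowest in H929 and LP1 (0.673 and 0.641 CPM per kb), and RAD50 in AMO1 (0.915 CPM per kb). The rank of RAD50 and its order against RAD51B are uncertain. Another gene shares 76.9% of its exon bases, where reads can be lost, yet its level is divided by the full exon length. The order of the pair turned with the label in AMO1, where RAD51B lay below RAD50 in the SCR libraries (0.626 to 0.702 against 0.903 to 0.973) and above it in the gN1E libraries (1.44 to 1.59 against 0.765 to 0.917), and in H929 the pair overlapped under the gN1E label (0.848 to 1.09 against 0.854 to 0.994). Levels were then compared between lines as the mean over both labels, weighted equally. Between H929 and AMO1, 35 of the 51 genes differed in level (5 higher and 30 lower in H929), none of the 35 by 2-fold or more. Of all 26436 genes 44.4% differed, 6138 higher and 5593 lower. Between LP1 and AMO1, 44 of the 51 differed (15 higher and 29 lower in LP1), 9 of them by at least 2-fold. Of all genes 75.9% differed, 10023 higher and 10031 lower. Between LP1 and H929, 47 of the 51 differed (21 higher and 26 lower in LP1), 6 of them by at least 2-fold. Of all genes 74.6% differed, 9572 higher and 10160 lower. For BABAM2, counted as higher in LP1 than in H929, the order turned with the label: LP1 was higher under SCR (4.48 to 4.61 against 2.81 to 3.37 CPM per kb) and lower under gN1E (5.34 to 5.71 against 6.51 to 7.0). Counted as lower in LP1 than in AMO1, it was lower under gN1E (against 7.29 to 7.74) but overlapped under SCR (against 3.65 to 4.63).

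The 9 genes that differed at least 2-fold between LP1 and AMO1 were of several roles. LP1 held more CHEK2 than AMO1 (4.20-fold, mean 5.04 against 1.20 CPM per kb), more PARP1 (2.68-fold, 24.8 against 9.51), more RAD50 (2.55-fold) and more BRCC3, the deubiquitinase of the BRCA1-A complex (2.22-fold). It held less RPA3, the smallest RPA subunit (4.61-fold lower, 2.7 against 12.5 CPM per kb), less LIG4 (2.53-fold lower), FANCL (2.45-fold lower), BRIP1 (2.33-fold lower) and RAD51C (2.06-fold lower), with adjusted p of 6.57e-25 or less for CHEK2, PARP1 and RPA3 (edgeR). RPA3 thus stood apart from RPA1 and RPA2, which stood at 27.7 and 22.7 CPM per kb in LP1 and 32.7 and 23.8 in AMO1. CHEK2 was also the gene that differed most between H929 and AMO1 (1.94-fold higher in H929). The levels of CHEK2 and RAD50 carry the limits on shared sequence given above, and those of PARP1, RPA3 and BRCC3 the limit on pseudogenes.

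**Figure D4:**
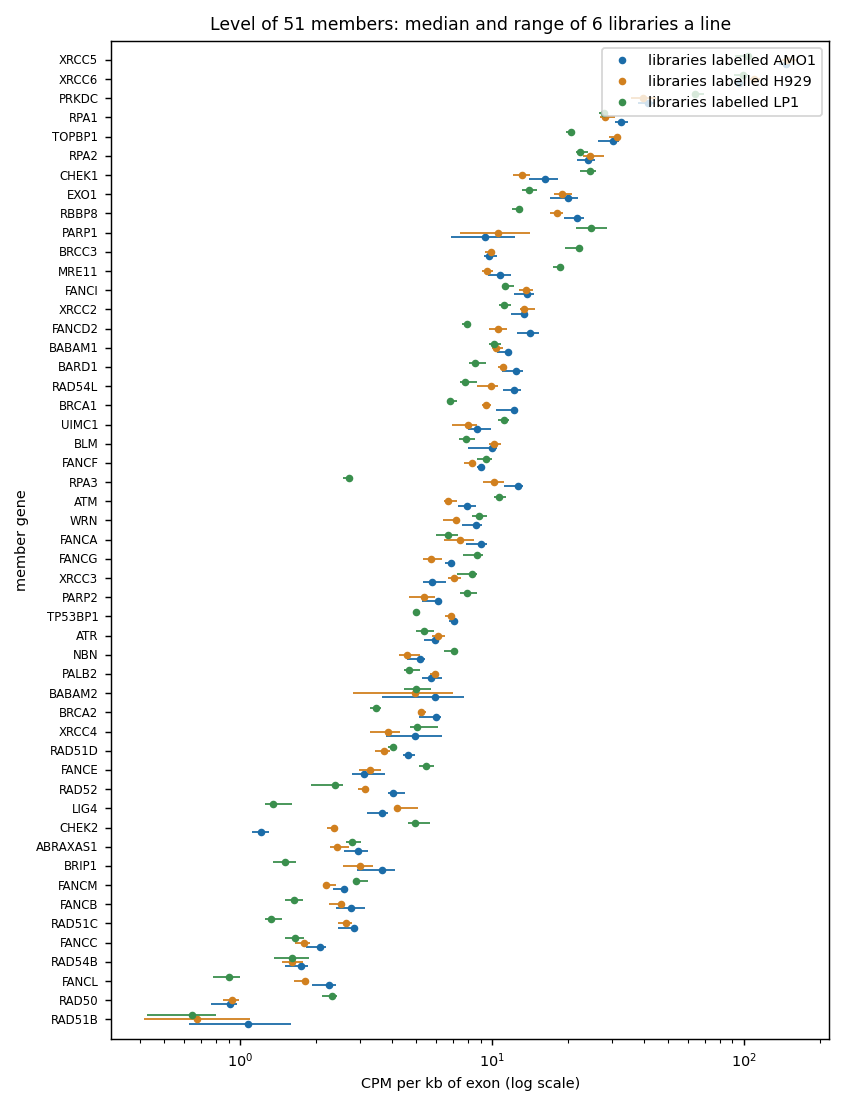
Level of the 51 genes in CPM per kb of exon (horizontal axis, log scale), with the median (point) and the range (line) of 6 libraries for each line, genes ordered by their mean. XRCC5, XRCC6 and PRKDC lie at the top and RAD51B and RAD50 at the bottom, the place of RAD50 being uncertain for its shared exon bases. RPA3 in LP1 lies far left of the other lines, and the wide ranges of RAD51B, BABAM2 and PARP1 hold both labels.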

How the data were processed

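Total RNA was sequenced as stranded paired-end libraries. Per the submitters' processing notes and the file headers, the authors aligned reads to hg38 with STAR 2.7.10a and deposited raw counts of fragments per gene over exons, made with featureCounts 1.6.4 on the reverse strand with GENCODE 43; reads of overlapping or near-identical genes can be lost or split. Of 62703 identifiers, 62639 were paired with a symbol. The 51 genes and all lists were chosen with earlier results of these data known.

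The deposited counts were tested per line with edgeR 4.0.16 (robust quasi-likelihood, TMM), for genes with at least 10 reads in 1 of 6 libraries, with adjusted p under 0.05. Differences between lines came from 1 fit of 18 libraries. CPM used TMM library sizes. limma-voom 3.58.1, which the study used, and DESeq2 1.42.0 were alternatives, as were other scalings, filters and each library left out. Libraries of the same replicate letter deviated alike from their label's mean in AMO1, if weakly (correlations of deviations 0.198, 0.16 and 0.121 for A, C and D). In LP1 the values were 0.178, 0.00828 and -0.0594 for A, B and D, so letter A there was like those of AMO1. In H929 they were -0.00176, -0.0688 and -0.0937 for A, B and C. Whether any letter marks a true pair was not tested. Full statistics are given for PARP1, BABAM2, CHEK1 and every gene past the threshold in at least 1 line, and, of 50 further break repair genes, for at most the 5 with the lowest adjusted p per line. Scripts were tested on simulated data.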

Additional observations from a re-analysis of the deposited data

Results flagged for a closer look

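The effect of the GapmeR label differed between lines for PARP1 and BABAM2 among the 51 genes. PARP1 rose more in AMO1 than in LP1 by 0.47 on the log2 scale and more in H929 than in LP1 by 0.56, and BABAM2 by 0.61 and 0.80 in the same comparisons (edgeR, joint fit of 18 libraries). LIG3, one of the 50 further break repair genes, was higher in each gN1E library than in any SCR library of AMO1 and H929 and lower in LP1. The difference in effect between H929 and LP1 was 0.31 (adjusted p = 0.00944, edgeR), and that between AMO1 and LP1, 0.21 by the separate fits and 0.23 by the joint fit, did not pass (adjusted p = 0.105).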

How the results depend on the processing

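RAD51B and PARP1 in each line, BABAM2 and BRIP1 in AMO1, BABAM2 and FANCA in H929, and the differences between lines of PARP1 and BABAM2 kept their direction and an adjusted p under 0.05 in each alternative fit. Of the 51 genes, the call rule of a 1.5-fold change (with an adjusted p under 0.1) left 3 in AMO1, 3 in H929 and 1 in LP1, the calls it ended including those of PARP1 in LP1, BRIP1 in AMO1 and FANCA in H929, and for the 50 further genes 0 in H929 and in LP1. With library size alone 4 were called in AMO1 and 5 in H929, and DESeq2 called 8 in AMO1. Shares of all genes called are given only for the AMO1 fits with the block, so the other counts here show only how the calls moved. With the replicate block and the genomic span offset together the counts were 5 in H929 (without BRIP1, PRKDC and RAD54L) and 2 in LP1, and the block alone gave 15 in AMO1 and 2 in LP1. In H929 the block moved the count from 8 to 7, dropping RAD54L (adjusted p = 0.0672, edgeR), and in LP1 it dropped BABAM2 (adjusted p = 0.0571) and FANCA (0.0565). The letters did not pair the H929 libraries, and in LP1 only those of letter A deviated alike (correlation 0.178). Leaving out 1 library gave 4 to 7 calls in AMO1, 4 to 10 in H929 (4 without SCR replicate A, 5 without gN1E replicate B) and 2 to 5 in LP1 (2 without SCR replicate A, SCR replicate B or gN1E replicate A). For the 50 further genes the counts, 0 in AMO1, 2 in H929 and 1 in LP1, became in AMO1 1 with DESeq2, 2 in the joint fit, 5 with the block, 2 with block and span and 0 to 1 with a library left out; in H929 1 with library size, 1 with block and span and 0 to 2 with a library left out; and in LP1 2 with DESeq2, 0 in the joint fit, 2 with library size, 0 with block and span and 0 to 2 with a library left out. XRCC4 in LP1 turned to -0.040, -0.014 and -0.032 without SCR replicate A, SCR replicate B or gN1E replicate B, within a range of -0.040 to 0.16 over the 6 libraries left out. NEAT1 in LP1 lost its call, not its direction, without SCR replicate B or any 1 gN1E library (all 6 removals, log2 2.00 to 2.25). The causes were not tested. RAD51B rests on 127 to 570 fragments a library, with standard errors of 0.11 to 0.12.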
